A study of Mus musculus with 2 samples.

Results

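The claudins and epithelial adhesion genes described here are 10 genes of the 28839 in the deposited FPKM table, taken by symbol as Cldn3, Cldn4, Cldn6, Cldn7, Cldn9, Ocln, Tjp1, Cdh1, Epcam and Msln. They were selected on their FPKM in these same 2 libraries, so all values below are descriptions. RNA-seq was performed on Sv129 cells, a mouse embryonic stem cell (mESC) line, cultured with 0 mg/L folate (FA0, the folate-deficient cells) or with 4 mg/L folate (FA4, the control cells). Cells of 1 thawed stock were split between the media, which shared 15% fetal bovine serum and leukemia inhibitory factor, so that FA0 had no added folate while the serum was common to both. Each condition had 1 library, so no difference has a check between cultures and no p-value is given.

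Epithelial cells are held together by tight junctions, which seal the space between neighbours, and by adherens junctions below them. Claudins are the membrane proteins that form the tight junction strands and set which ions pass, occludin sits in the same strands, and the scaffold ZO-1 ties both to actin. E-cadherin builds the adherens junction and EpCAM, a membrane glycoprotein that associates with claudin-7, tunes adhesion. Mouse ES cells grow as compact colonies held by E-cadherin, and mesothelin is a surface protein best known from mesothelial linings.

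Across the 10 genes, 2 were at least 2-fold higher in FA0 (Msln and Cldn4), 1 was at least 2-fold lower (Cldn6), and the others stayed within 2-fold. The change was calculated as log2((FPKM + 1) in FA0/(FPKM + 1) in FA4), where the added 1 makes the change of weakly expressed genes smaller. FPKM counts fragments per kilobase of gene, scaled to the size of the library. Over all 14345 genes that reached an FPKM of 1 in a library, the share at least 2-fold higher in FA0 was 2.99% by this measure, and the share at least 2-fold lower was 1.32%. Of the 10 genes 9 met that minimum and Cldn9 did not. The median change was -0.20 over the 10 genes (-0.24 over the 9), beside 0.05 over all 14345 genes. Of the 10, 3 lay above 0 and 7 below, beside 7988 above and 6357 below of the 14345. Folds are given as ratios of FPKM without the pseudocount, each with a 95% Clopper-Pearson interval from the reads recovered for the gene. These intervals cover counting error only and leave out the spread between cultures. They lay above equal levels for 3 genes (Msln, Cldn4 and Cdh1), below for 5 (Cldn6, Cldn7, Ocln, Epcam and Tjp1), and covered equal levels for Cldn3 and Cldn9. With many reads even a small difference leaves equal levels out, as for Tjp1 at 1.05-fold. The share of all genes with such intervals is not given here, so these counts do not set the 10 genes apart. In bulk RNA, a change in the share of expressing cells cannot be told apart from a change in RNA per cell.

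**Figure D1:**
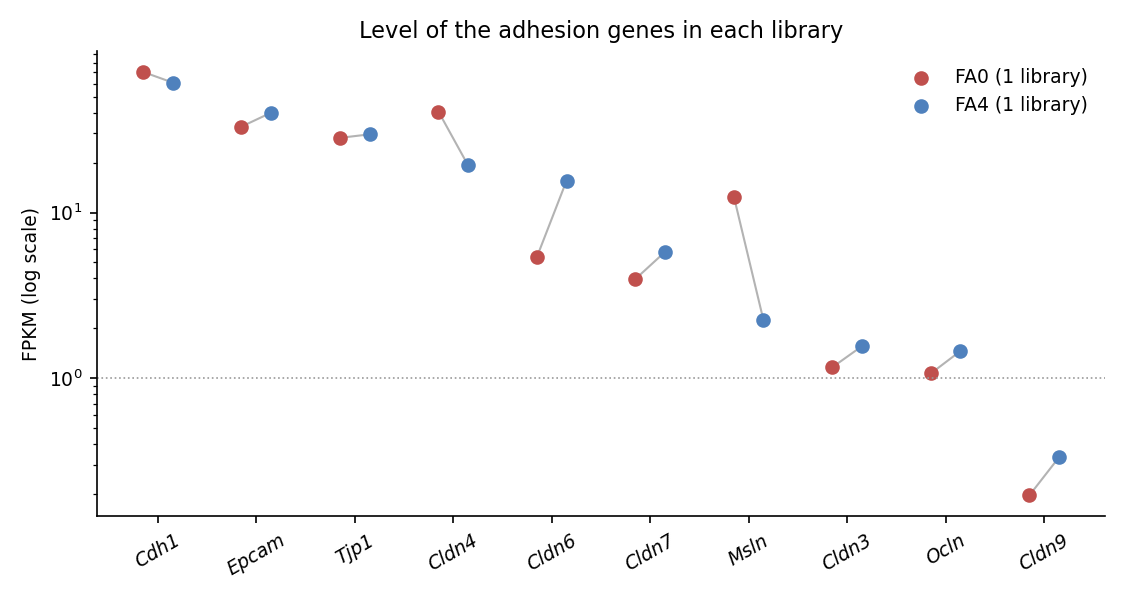
FPKM of each gene (log axis) in FA0 (left point of each pair) and FA4 (right point), 1 library each, ordered by the FA4 level, with a dotted line at an FPKM of 1. Msln, Cldn4 and Cldn6 have the steepest lines, with Msln at 12.4 in FA0 and 2.24 in FA4.

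**Figure D2:**
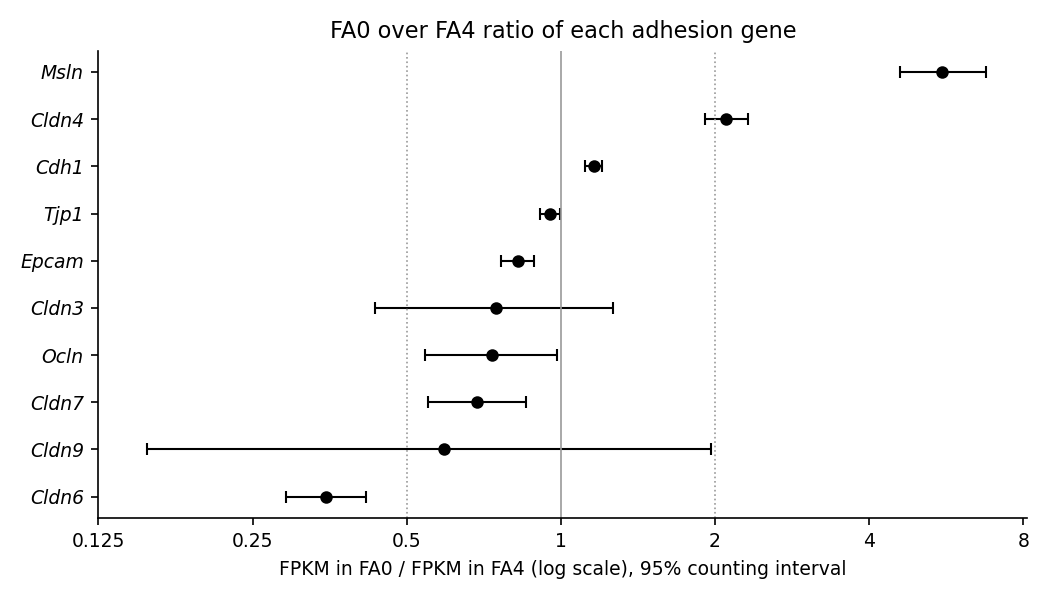
Ratio of FPKM in FA0 over FA4 for each gene on a log axis, with 95% counting intervals, a solid line at equal levels and dotted lines at 2-fold. The interval of Msln runs from 4.59 to 6.75 and that of Cldn6 from 0.290 to 0.416, while those of Cldn3 and Cldn9 cross 1.

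Among the claudins, Cldn4 and Cldn6 stood on opposite sides. Claudin-4 is a claudin of many simple epithelia, and together with claudin-3 it is a known receptor of a clostridial enterotoxin. Cldn4 (ENSMUSG00000047501, 1 exon, chromosome 5 from 134945119 to 134946934 in mm10, minus strand) had an FPKM of 40.6 in FA0 and 19.3 in FA4, or 1306 and 659 reads. It was 2.11-fold higher in FA0 (95% counting interval 1.92 to 2.32), with a change of 1.04, just past the 2-fold limit, and the interval reaches below it. Claudin-6 is an embryonic claudin that is also known as a surface marker of pluripotent cells. Cldn6 (ENSMUSG00000023906, chromosome 17 from 23679365 to 23682446, plus strand) had an FPKM of 5.40 in FA0 and 15.5 in FA4. It was 2.88-fold lower in FA0 (95% counting interval 2.40 to 3.44), with a change of -1.37. Its reads did not come out whole with the exon length used here (164.6 in FA0 and 502.8 in FA4 before rounding). The deposited gene starts 116 bases later than the GENCODE M21 gene, and whether this accounts for it was not tested. The FPKM of Cldn4 was 7.52 times that of Cldn6 in FA0 and 1.24 times in FA4, so the balance between them differed 6.06-fold (95% counting interval 4.93 to 7.42).

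The other 3 claudins were lower in FA0 by their FPKM without reaching 2-fold. Cldn7, whose protein binds EpCAM, had an FPKM of 3.97 in FA0 and 5.79 in FA4, 1.46-fold lower (95% counting interval 1.17 to 1.82). Cldn3 had 1.17 in FA0 and 1.56 in FA4, from 26 and 37 reads, and its interval covered equal levels (ratio 0.746, 95% counting interval 0.434 to 1.27). Cldn9 rested on 5 reads in FA0 and 9 in FA4, at FPKM of 0.197 and 0.333, too few to place it on either side (ratio 0.590, 95% counting interval 0.155 to 1.96). Thus Cldn4 was the single member claudin with a higher FPKM in FA0, while the sides of Cldn3 and Cldn9 are not settled.

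The claudin genes of the table were 23 in number, the 5 above and 18 others. Summed over all 23, claudin FPKM was 67.0 in FA0 and 57.5 in FA4. Cldn4 made up 60.7% of this sum in FA0 and 33.5% in FA4, while Cldn6 made up 8.06% in FA0 and 27.0% in FA4. Of the 18 other claudins, 2 reached an FPKM of 1, and neither was 2-fold apart. Cldn12, a claudin with wide expression, had 10.4 in FA0 and 11.5 in FA4 (1.11-fold lower, 95% counting interval 1.01 to 1.22), and Cldn20 had 1.97 in FA0 and 1.37 in FA4 from 23 and 17 reads. The remaining 16 stayed at or below an FPKM of 0.476 in both libraries, so the claudin content of these cells was made by a few genes with Cldn4 first in each library.

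**Figure D3:**
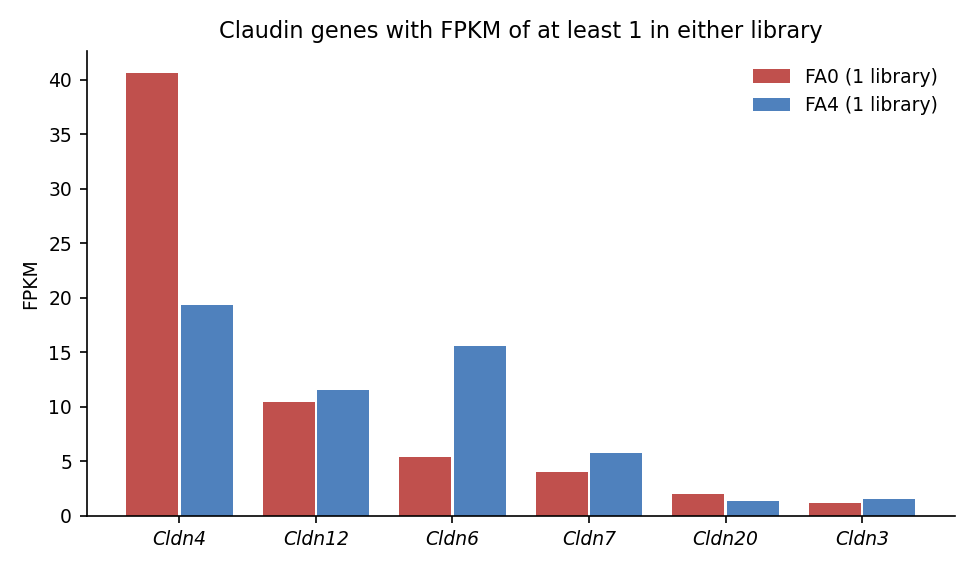
FPKM of the 6 claudin genes with an FPKM of at least 1 in either library, as bars for FA0 (left) and FA4 (right), 1 library each and no error bars. Cldn4 is the highest bar in each library, and the Cldn6 bar stands at 5.40 in FA0 and 15.5 in FA4.

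Of the 5 claudins, 4 lie in neighbouring pairs on the genome, Cldn4 with Cldn3 and Cldn6 with Cldn9. Cldn4 and Cldn3 are 39.3 kb apart on chromosome 5 on opposite strands, with Cldn4 higher in FA0 and Cldn3 at a ratio of 0.746, and the balance of Cldn4 to Cldn3 differed 2.82-fold (95% counting interval 1.65 to 4.89). Mettl27, 2481 bases from Cldn4 on its other side, had an FPKM of 12.7 in FA0 and 10.6 in FA4, and Abhd11, 21679 bases past Cldn3, had a ratio of 0.963. Cldn6 and Cldn9 face each other with 137 bases between their 3' ends on chromosome 17, and with so few reads of Cldn9 a difference in balance within the pair was not detectable (ratio of Cldn6 to Cldn9 27.4 in FA0 and 46.6 in FA4, 95% counting interval of the quotient 0.175 to 2.28). The nearest expressed gene before Cldn6, Tnfrsf12a, which encodes the TWEAK receptor, was also lower in FA0, at an FPKM of 6.16 in FA0 and 9.39 in FA4 (ratio 0.656, 95% counting interval 0.551 to 0.783). Pkmyt1, a kinase that inhibits CDK1 and the nearest expressed gene past Cldn9, had 28.4 in FA0 and 22.7 in FA4.

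The promoters of the claudins on either side of the 2-fold limit are shown because their levels went opposite ways, with that of Epcam as a highly expressed adhesion gene within 2-fold. Each is the 250 bases before the RefSeq start (GRCm38.p6, the build of mm10), written 5' to 3' on the gene's strand. Capitals mark the E-box CACCTG, the word bound by Snail and ZEB repressors, and the GC box GGGCGG, the word bound by Sp1, on either strand. The windows are chr5:134946935-134947184 for Cldn4 (minus strand), chr17:23679115-23679364 for Cldn6 and chr17:87635729-87635978 for Epcam (both plus strand).
Cldn4: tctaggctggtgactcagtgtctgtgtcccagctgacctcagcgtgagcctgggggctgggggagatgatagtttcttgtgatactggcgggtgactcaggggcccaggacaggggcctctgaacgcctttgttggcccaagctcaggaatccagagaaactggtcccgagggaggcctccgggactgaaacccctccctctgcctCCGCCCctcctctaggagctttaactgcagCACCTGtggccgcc
Cldn6: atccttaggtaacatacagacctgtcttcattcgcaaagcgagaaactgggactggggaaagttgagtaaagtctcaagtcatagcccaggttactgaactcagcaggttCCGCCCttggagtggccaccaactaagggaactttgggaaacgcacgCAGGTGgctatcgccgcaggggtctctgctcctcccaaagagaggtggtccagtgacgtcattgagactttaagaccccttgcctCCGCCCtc
Epcam: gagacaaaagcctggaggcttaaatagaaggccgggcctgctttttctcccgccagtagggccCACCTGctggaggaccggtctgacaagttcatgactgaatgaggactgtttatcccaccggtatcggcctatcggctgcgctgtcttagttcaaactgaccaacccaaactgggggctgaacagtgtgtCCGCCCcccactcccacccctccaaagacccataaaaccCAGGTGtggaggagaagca
The Cldn4 window held 1 E-box, 14 bases before the start, and 1 GC box. The Cldn6 window held 1 E-box, 93 bases before the RefSeq start, and 2 GC boxes, 140 and 8 bases before it. The GENCODE M21 gene starts 116 bases earlier, so this E-box and the nearer GC box lie inside that gene. The Epcam window held 2 E-boxes, 187 and 19 bases before the start, and 1 GC box. Sequences were found for 7 of the 10 genes, with 9 start sites among them. Of the other 6 windows, 1 of Cldn7 and 1 of Ocln held 2 E-boxes each, and those of Cldn3 and Tjp1, the other of Cldn7 and the other of Ocln held none. The GC box was in those of Cldn3 and Tjp1, both of Ocln and 1 of Cldn7, and absent from the other of Cldn7. Of 32851 mouse windows of this length, 17.2% held the E-box, 32.7% the GC box and 1.79% AACCNGTT, the word bound by grainyhead-like factors. The share of G and C was 62% in the Cldn4 window, 53.6% in that of Cldn6 and 56.4% in that of Epcam, beside a median of 52.4% over all windows. The shares with a word were not matched for this, and no enrichment was tested. None of the 9 windows held AACCNGTT, which says only that these letters are absent from these windows. A match is a word in the sequence and was not tested as a binding site.

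Ocln and Tjp1, the other tight junction members, stayed within 2-fold. Ocln, for occludin (chromosome 13), had an FPKM of 1.07 in FA0 and 1.46 in FA4, from 80 and 116 reads (1.37-fold lower, 95% counting interval 1.02 to 1.84). Tjp1, for ZO-1 (chromosome 7), had 28.2 in FA0 and 29.6 in FA4. Its 3901 and 4351 reads gave a narrow interval, 1.05-fold lower (95% counting interval 1.01 to 1.10), and its small change of -0.07 moved to 0.01 when the libraries were rescaled to TPM, so it has no settled direction.

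Of 20 expressed partners of the tight junction, Crb3 alone was past the 2-fold limit, on the lower side, and the median change was 0.04, beside 0.05 over all genes. Crb3, an apical polarity protein of the Crumbs complex, had an FPKM of 1.81 in FA0 and 6.09 in FA4, 3.37-fold lower (95% counting interval 2.45 to 4.71). Ildr1, of tricellular junctions, stood on the other side with 39.4 in FA0 and 24.8 in FA4 (1.59-fold higher, 95% counting interval 1.501 to 1.682). Cgnl1, for paracingulin, had 5.80 in FA0 and 3.98 in FA4. Marveld2, for tricellulin, lies next to Ocln on chromosome 13 with 43238 bases between them and had 1.37 in each library.

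E-cadherin was the most highly expressed of the 10 genes in each library. Cdh1 (ENSMUSG00000000303, chromosome 8 from 106603351 to 106670246, plus strand) had an FPKM of 70.5 in FA0 and 60.8 in FA4, or 5708 and 5234 reads, 1.16-fold higher in FA0 (95% counting interval 1.12 to 1.20). Of its catenin partners, Ctnnb1, for beta-catenin, had 142 in FA0 and 134 in FA4, Ctnna1, for alpha-catenin, had 141 in FA0 and 154 in FA4, and Ctnnd1, for p120-catenin, had 6.88 in FA0 and 8.47 in FA4 (1.23-fold lower, 95% counting interval 1.13 to 1.34). These 3 were picked after their values were seen. Of 12 expressed adherens junction partners none was at least 2-fold apart, and the median change was 0.26. Of these, 8 had a change above 0 and 4 below, beside 7988 above and 6357 below over all genes. Jup, for plakoglobin, which serves adherens junctions and desmosomes, came nearest to the limit with 31.3 in FA0 and 16.3 in FA4, 1.92-fold higher (95% counting interval 1.82 to 2.03). Nectin1 had 6.83 in FA0 and 4.22 in FA4 (1.62-fold higher, 95% counting interval 1.43 to 1.83), and Afdn, for the nectin-binding afadin, had 15.0 in FA0 and 10.9 in FA4. Plekha7, an adherens junction protein that binds p120-catenin, had 10.7 in FA0 and 8.12 in FA4. Among 6 expressed desmosome genes none was 2-fold apart, and the median change was -0.02. Pkp4 was the highest of them with 26.38 in FA0 and 20.98 in FA4. Dsp, for desmoplakin, named after its values were seen, went the other way with 1.31 in FA0 and 1.99 in FA4 (1.52-fold lower, 95% counting interval 1.284 to 1.805), and Dsg2, Perp and Pkp2 had ratios from 0.956 to 1.04.

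Of 6 expressed genes on the list of E-cadherin repressors and mesenchymal genes none reached 2-fold, and the median change was 0.50. Over all genes 7988 had a change above 0 and 6357 below, and of these 6 genes 5 lay above and 1 below. The one below was the repressor Twist1, with an FPKM of 2.78 in FA0 and 3.72 in FA4 (ratio 0.745, 95% counting interval 0.553 to 1.001), named after its values were seen. Snai1, for the E-cadherin repressor Snail, had an FPKM of 9.06 in FA0 and 4.99 in FA4, 1.82-fold higher (95% counting interval 1.48 to 2.23). Vim, for vimentin, had 26.2 in FA0 and 15.3 in FA4 (1.71-fold higher, 95% counting interval 1.60 to 1.83), Mmp2, a secreted metalloproteinase, had 9.57 in FA0 and 6.04 in FA4, and Fn1, for fibronectin, had 160 in FA0 and 131 in FA4. Of 9 expressed epithelial transcription and splicing regulators none was 2-fold apart, with changes from -0.55 to 0.36 and a median of -0.06. At the ends of this range, and named after their values were seen, the splicing factor Esrp1 had 1.94 in FA0 and 3.31 in FA4 (1.70-fold lower, 95% counting interval 1.44 to 2.02) and Ovol2, an epithelial transcription factor, had 2.06 in FA0 and 1.38 in FA4 (1.49-fold higher, 95% counting interval 1.04 to 2.14). Grhl3, a grainyhead-like factor, had 14.9 in FA0 and 14.8 in FA4, Klf5 had 73.8 in FA0 and 79.0 in FA4, and Elf3, an epithelial ETS factor, had 20.8 in FA0 and 24.8 in FA4.

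**Figure D4:**
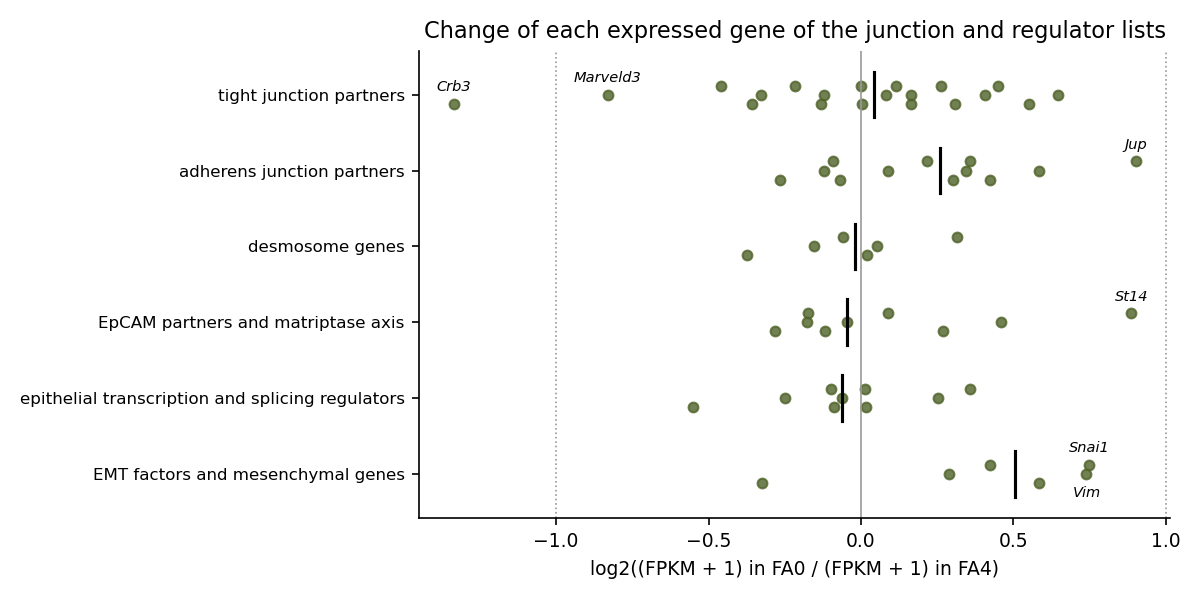
Change, as log2((FPKM + 1) in FA0/(FPKM + 1) in FA4), of every gene of 6 lists that reached an FPKM of 1 in a library, with 1 point per gene, a black tick at each median and dotted lines at 2-fold. Crb3, at -1.34, is the single gene past a dotted line, and the ticks run from -0.06 for the epithelial regulators to 0.50 for the EMT factors and mesenchymal genes.

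Epcam was lower in FA0 by a small margin, and the proteases on the list of its partners did not share a direction. Epcam (ENSMUSG00000045394, chromosome 17 from 87635979 to 87651106, plus strand) had an FPKM of 33.0 in FA0 and 40.0 in FA4, 1.21-fold lower (95% counting interval 1.13 to 1.31). St14, for matriptase, a membrane protease known to cleave EpCAM, had 16.6 in FA0 and 8.51 in FA4, 1.95-fold higher (95% counting interval 1.82 to 2.09). Of the matriptase inhibitors, Spint1 had 37.6 in FA0 and 27.0 in FA4 (1.39-fold higher, 95% counting interval 1.295 to 1.490) and Spint2 had 42.7 in FA0 and 48.4 in FA4 (1.13-fold lower, 95% counting interval 1.08 to 1.19). The sheddase Adam17 went the other way from St14, with 6.47 in FA0 and 8.08 in FA4 (ratio 0.801, 95% counting interval 0.731 to 0.878). Adam10, named after its values were seen, had a ratio of 0.967 (95% counting interval 0.880 to 1.06). Of 9 expressed genes on this list none was 2-fold apart, and the median change was -0.04. The FPKM of Epcam was 8.30 times that of its partner Cldn7 in FA0 and 6.91 times in FA4, and the counting interval of the quotient (0.951 to 1.52) covered an equal balance.

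Msln had the largest difference of the 10 genes. Mesothelin is a GPI-anchored surface protein that binds the mucin MUC16. Msln (ENSMUSG00000063011, chromosome 17 from 25748614 to 25754327, minus strand) had an FPKM of 12.4 in FA0 and 2.24 in FA4, or 674 and 129 reads, 5.55-fold higher in FA0 (95% counting interval 4.59 to 6.75) with a change of 2.05. Its relative and neighbour Mslnl had 8 reads in each library, and Muc16 had 3 reads in FA0 and was listed at 0 in FA4. The nearest expressed genes on either side stayed within 2-fold. Rpusd1 had 10.4 in FA0 and 12.1 in FA4 (ratio 0.861, 95% counting interval 0.743 to 0.997). Narfl had 7.85 in FA0 and 8.03 in FA4 (ratio 0.978, 95% counting interval 0.890 to 1.07).

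Of 9 mesothelial markers measured, 3 reached an FPKM of 1, and among these Krt19 alone was past the 2-fold limit, on the higher side. The summed FPKM of all 9 was 16.3 in FA0 and 7.06 in FA4. Krt19, a keratin of simple epithelia, was the largest part of the sum in each library. It had 12.6 in FA0 and 3.53 in FA4 (3.58-fold higher, 95% counting interval 2.92 to 4.41). The defining markers were low, with Wt1 at 0.0456 in FA0 and 0.206 in FA4, from 5 and 24 reads (4.52-fold lower, 95% counting interval 1.69 to 15.2), and Upk3b at 1.17 in FA0 and 1.02 in FA4. No marker was listed at 0 in FA0, while 2 of the 9 were in FA4, Muc16 with 3 reads in FA0 and Upk1b with 1. Zeros were commoner in FA4 over all 28839 genes too, at 2135 in FA0 and 3076 in FA4. The higher Msln in FA0 therefore stood beside a higher Krt19 and a lower Wt1.

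**Figure D5:**
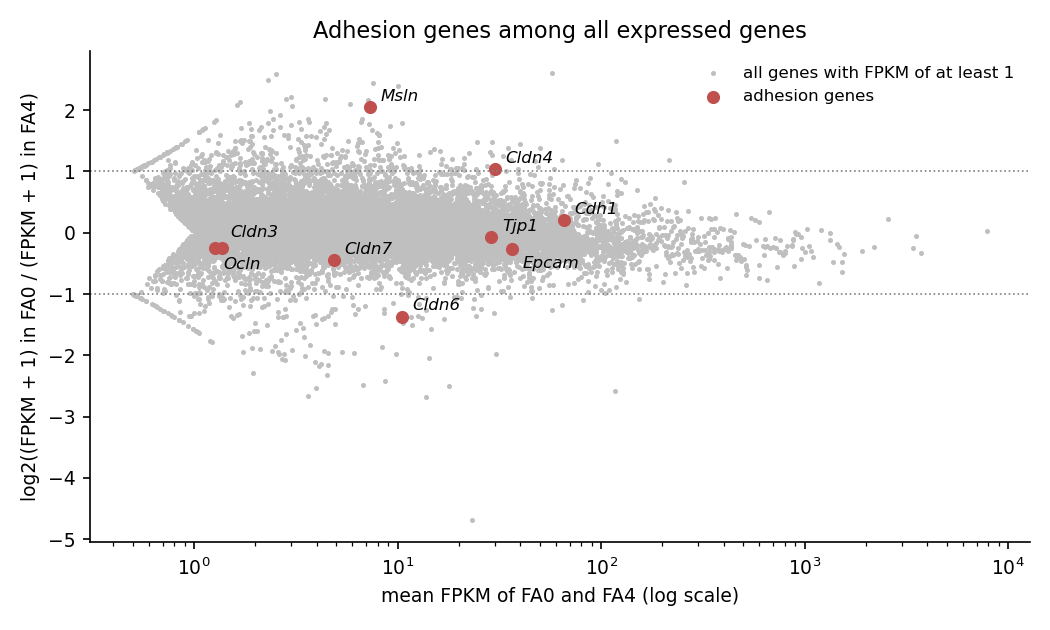
Change of the 14345 genes with an FPKM of at least 1 in either library (grey) against their mean FPKM (log axis), with the 9 adhesion genes that met this minimum in red and dotted lines at 2-fold. Msln at 2.05 and Cldn6 at -1.37 lie outside the dotted lines, Cldn4 at 1.04 lies just past the upper one, and the other 6 lie within the band of grey points.

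Set against all 14345 genes, Msln had the 14th highest change, Cldn4 the 376th highest and Cldn6 the 75th lowest. Against genes of like level, those with a mean FPKM within 1.5-fold of the gene's own, Cldn4 had a higher change than 99.2% of 1850 genes and Msln a higher change than 99.9% of 3138 genes, while 0.332% of 3013 genes had a lower change than Cldn6. Cldn7 was lower than most genes of like level too, with 5.56% of 3076 genes below it. Tjp1 stood near the middle of its genes of like level, with 44.9% of 1904 genes below it. Ocln and Cldn3, with 18.7% of genes below each, and Epcam, with 19.9%, lay on the low side, and Cdh1, with 83.5% of 861 genes below it, on the high side. These ranks describe these 2 libraries, and the genes were chosen with them in view.

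The order of the levels differed between the libraries mainly through Cldn4, Cldn6 and Msln. In FA0 the order by FPKM was Cdh1, Cldn4, Epcam, Tjp1, Msln, Cldn6, Cldn7, Cldn3, Ocln and Cldn9. In FA4 it was Cdh1, Epcam, Tjp1, Cldn4, Cldn6, Cldn7, Msln, Cldn3, Ocln and Cldn9. Thus Cldn4 stood above Epcam in FA0 (ratio of FPKM 1.23) and below it in FA4 (0.482), a quotient of 2.55 (95% counting interval 2.27 to 2.88). Neighbours in the order were apart beyond counting error, except Cldn3 and Ocln in each library and Msln and Cldn3 in FA4, whose ratio of 1.43 had an interval of 0.987 to 2.12. No spread between cultures is known for any of these ranks. Summed over the 10 genes, FPKM was 197 in FA0 and 177 in FA4.

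Recovered reads summed over genes came to 18362263 in FA0 and 19529341 in FA4. These sums lie above the library totals fitted with the value of 1 read, 17704764 in FA0 and 18807018 in FA4. They are therefore not read counts of the libraries, and the cause of the excess was not tested. All 12 mES cell markers reached an FPKM of 1 and none was 2-fold apart. Their summed FPKM was 2609 in FA0 and 3342 in FA4, and the median change was -0.20. Of the 12, 3 had a change above 0 and 9 below, beside 7988 above and 6357 below over all genes. Zfp42 had the lowest ratio (0.583, with 480 in FA0 and 824 in FA4) and Fgf4 the highest (1.33, with 56.2 in FA0 and 42.3 in FA4). Markers of other cells moved in both directions too. Of 10 primitive endoderm markers, Col4a1 was at least 2-fold higher (46.0 in FA0 and 22.3 in FA4) and Gata6 at least 2-fold lower (0.778 in FA0 and 2.58 in FA4), at a summed FPKM of 173 in FA0 and 155 in FA4, with Sox17 at 0.201 in FA0 and 0.390 in FA4. Lama1 was 2.03-fold higher by the ratio of FPKM (24.6 in FA0 and 12.1 in FA4). Of the 6 expressed, 2 had a change above 0 and 4 below. Of 10 trophectoderm markers none was at least 2-fold higher by the change and Krt18, a keratin of simple epithelia, was at least 2-fold lower (3.81 in FA0 and 10.1 in FA4), at a summed FPKM of 41.5 in each library. Tead4 was 2.01-fold higher by the ratio of FPKM (9.92 in FA0 and 4.94 in FA4), and Krt8 had 7.30 in FA0 and 5.97 in FA4. Of the 6 expressed, 3 had a change above 0 and 3 below. Cdx2, with 2 reads in FA0 and 8 in FA4, and Elf5, with 2 reads in FA0 and 1 in FA4, were near 0. The 8 feeder fibroblast markers summed to 7.36 in FA0 and 6.96 in FA4, mostly Thy1, with Col1a1 at 0.301 in FA0 and 0.203 in FA4. Of these 8, 2 reached an FPKM of 1 and neither was 2-fold apart, and Postn had 9 reads in FA0 and was listed at 0 in FA4. No primitive endoderm or trophectoderm marker was listed at 0 in either library. Of the fibroblast markers none was at 0 in FA0 and 3 were in FA4, beside 2135 and 3076 of all 28839 genes. Besides Postn these were Lum and Col3a1, with 1 read each in FA0. The part of such cells in the levels of Cldn4, Cldn6 and Msln was not tested.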

How the data were processed

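The authors aligned the reads of both libraries to mm10 and deposited 1 table of FPKM by Ensembl ID. Per the submitters' processing notes, the tools were StringTie 1.3.3b, HISAT2 2.1.0 and DESeq 1.28.0, to which the methods add Tophat and limma. For multi-mapped reads and strand, the handling is not stated in the sources at hand. FPKM were used as deposited, with a pseudocount of 1 and a minimum of 1 in either library.

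Reads were recovered from FPKM and merged exon lengths in GENCODE M21 (build mm10), with the value of 1 read fitted on genes of up to 20 reads, of which 98.1% in FA0 and 97.9% in FA4 were within 0.05 of whole. This held in both libraries for 7 of the 10 genes, and the reads of Cldn6, Cldn9 and Epcam were rounded (the deposited spans of these 3 and of Msln differ from GENCODE's). No exon of another gene overlaps the 10 genes, except 40 bases of the antisense Wbscr25 in Cldn3.

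The genes and lists were chosen with earlier results of these data known. Named from each list were the 4 largest changes among genes with an FPKM of at least 5, with the defining markers and nearest expressed neighbours, of which some are not reported here. Where a symbol had several table entries, the one so named in GENCODE was taken. With 1 library per condition no test or leave-out was possible. Alternatives were other pseudocounts, other minimums and rescaling of the libraries. The code was tested on simulated data. Promoter sequences are from RefSeq (GRCm38.p6). Python 3.11.15, numpy 2.4.6, pandas 2.3.3, scipy 1.17.1 and matplotlib 3.10.9 were used.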

Additional observations from a re-analysis of the deposited data

How the results depend on the processing

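Msln and Cldn4 were at least 2-fold higher and Cldn6 at least 2-fold lower under each of the 7 alternatives. The changes ran from 2.05 to 2.47 for Msln, from 1.04 to 1.14 for Cldn4 and from -1.52 to -1.36 for Cldn6. Of 67 changes of the 10 genes under alternatives, 62 moved by less than their counting error, 5 moved by more (3 of Msln, and Cdh1 and Tjp1 after rescaling to TPM), and Tjp1 alone changed sign. The counts over all genes, 429 higher and 190 lower, depended on the setting. They were 951 and 409 with a pseudocount of 0.1, 659 and 279 with 0.5, 978 and 406 by the ratio of FPKM, 195 and 80 with a minimum FPKM of 5, and 1529 and 599 after rescaling to TPM, and with no minimum they stayed at 429 and 190. By its definition a smaller pseudocount compresses the changes of weakly expressed genes less. After rescaling to TPM 18809 genes met the minimum, beside 14345. The part of each in these counts was not tested. The median change of the 10 genes ran from -0.35 by the ratio of FPKM to -0.07 with a minimum FPKM of 5, which 7 of them met. The medians of the desmosome, EpCAM partner and epithelial regulator lists lay within 0.1 of 0. After rescaling to TPM they became positive, at 0.0997, 0.102 and 0.0523, but the median over all genes rose as well, from 0.05 to 0.147. That of the desmosome genes was also positive with a minimum FPKM of 5 (0.0366), and that of the epithelial regulators with no minimum (0.0150). The median of the tight junction partners was -0.06 with a minimum FPKM of 5. A minimum of 5 left out Cldn3, Cldn9, Ocln and all feeder fibroblast markers, so these gave no value there. No paired analysis was possible because each condition had 1 library. Counting error limits Cldn9, Cldn3 and Ocln, and the spread between cultures is unknown for every gene.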

Other observations

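Several junction, epithelial and E-cadherin repressor genes were picked after their values were seen. All but Zeb1 lay below or near an FPKM of 1, where the pseudocount compresses ratios. Marveld3, a MARVEL-domain relative of occludin, had 28 reads in FA0 and 101 in FA4, 3.40-fold lower by the ratio of FPKM (95% counting interval 2.22 to 5.36) with a change of -0.83. Ovol1, an epithelial transcription factor, had 1 read in FA0 and 32 in FA4 (ratio 0.0394, 95% counting interval 0.000815 to 0.199). On the other side, Cdh2, for N-cadherin, had 64 reads in FA0 and 26 in FA4, 2.61-fold higher (95% counting interval 1.63 to 4.30), at FPKM of 0.448 and 0.171, far below Cdh1. Snai2, for Slug, had 31 reads in FA0 and 15 in FA4, 2.20-fold higher (95% counting interval 1.15 to 4.38). Zeb1, a further repressor of E-cadherin, had an FPKM of 3.87 in FA0 and 2.64 in FA4 (1.47-fold higher, 95% counting interval 1.31 to 1.65), whereas Zeb2 had 21 reads in FA0 and 52 in FA4. No cause was tested for any of these values, and each rests on 1 library per condition.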
